A study of Mus musculus with 4 samples.

Results

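Axon guidance ligands and receptors are described here as targets of a transposon gene trap in mouse haploid neural stem cell-like cells. The genes were chosen by symbol alone: Slit and Robo genes, Slitrk genes, semaphorins, plexins, neuropilins, netrins and netrin-G genes, the netrin receptors Dcc, Neo1 and Unc5, and ephrins. Eph receptors were not taken in. The rule found 33 genes among the 5614 genes listed in at least one of 2 deposited tables. Library 1 listed 28 of them among 4184 genes, and library 2 listed 23 among 3168 genes. The cells carry one set of chromosomes, have a 129Sv background and were differentiated from haploid embryonic stem cells with FGF2, EGF, LDN193189, SB431542 and a ROCK inhibitor (Y-27632, Thiazovivin or both). All cells of both libraries received a piggyBac gene trap plasmid together with a piggyBac transposase and were selected with G418, and splinkerette PCR products of the insertion junctions were sequenced. The 4 samples form 2 libraries of 2 samples each, and the labels name no treatment, age or genotype by which the libraries differ. Each table pools its 2 samples, so there are no replicates per library, no test between libraries was made, and every difference below compares 2 pools of reads. Genomic DNA holds no expression, so the cell type named in the labels could not be checked with markers.

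Axon guidance proteins steer growing axons and migrating cells by attraction or repulsion. Secreted Slits act through Robo receptors, semaphorins through plexins, often with a neuropilin as the binding partner, netrins through Dcc, neogenin and Unc5 receptors, and membrane-bound ephrins through Eph receptors. Several of these receptors also act outside axons, in blood vessel growth and in the migration and adhesion of neural progenitors. In a haploid cell a gene trap that disrupts such a gene leaves no intact copy, but whether the listed genes were disrupted was not tested. The tables give, for each gene, a count of nonredundant and of redundant reads, and the first never exceeds the second. How the 2 were defined is not given in the sources used here, and by their names the redundant reads include repeat reads. They hold no positions, so a value cannot be placed in an exon, an intron or a UTR, and neither count is a number of insertions or of cells.

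Most of these genes had few reads, and a handful held most of the signal. Of the 33 genes, 22 had at most 3 nonredundant reads in any library, 6 had 4 to 9 in the library where they were higher, and 5 had 10 or more. These 5 were the ephrin gene Efnb2, the neuropilin gene Nrp2, the netrin receptor gene Dcc and the plexin genes Plxnc1 and Plxna4. In library 1 the genes held 121 of 55442 nonredundant reads, or 0.218% (exact 95% interval 0.181 to 0.261), and in library 2 they held 406 of 48750, or 0.833% (0.754 to 0.918). All intervals here are Clopper-Pearson intervals or are derived from them, and they cover counting error only, because the reads are PCR products and carry no molecular identifiers. The gap between the libraries rested on one gene. Efnb2 held 84.7% of the reads of the group in library 2, and without it the share was 0.128% there. The leading gene of library 1, Nrp2, held 36.4% of the group's reads in that library, and without it the share was 0.139%. The median listed gene of the group had 2 nonredundant reads in library 1 and 1 in library 2, beside a median of 1 over all listed genes of each library.

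The number of genes with substantial support was close to that of any listed gene. In library 1, 3 of 28 genes (10.7%, exact 95% interval 2.27 to 28.2) had 10 or more nonredundant reads, beside 11.9% of all listed genes. In library 2 it was 3 of 23 (13.0%, 2.78 to 33.6), beside 9.28% of all listed genes. Exactly 1 nonredundant read was found for 13 of 28 genes in library 1 (46.4%, beside 53.7% of all listed genes) and for 12 of 23 in library 2 (52.2%, beside 59.7%). A gene resting on 1 read is weakly supported, and 11 of the 33 genes had no more than 1 read in either library.

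The 2 libraries shared 18 of these genes, which is 64.3% of those in library 1 and 78.3% of those in library 2. Of the 33 genes, 28 were in library 1 (84.8%, exact 95% interval 68.1 to 94.9, beside 74.5% of all 5614 genes), 23 were in library 2 (69.7%, 51.3 to 84.4, beside 56.4%), and 18 were in both (54.5%, 36.4 to 71.9, beside 31.0%). The excess was not seen in the longest of 10 classes of gene length. There, 13 of 23 listed members were in both libraries (56.5%, 34.5 to 76.8), beside 1016 of 1717 listed genes of that class (59.2%, 56.8 to 61.5). In class 8 all 3 listed members were in both, beside 160 of 885 listed genes. In class 9 it was 1 of 1, beside 320 of 1195, and in class 7 it was 1 of 2, beside 116 of 646. In class 6 it was 0 of 2, beside 61 of 448. Outside the longest class the members were thus too few to compare class by class. Shared does not mean well supported: 10 of the 18 had 3 or fewer nonredundant reads in each library and 5 had exactly 1 in each.

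The same symbol rule applied to the RefSeq gene table of assembly GRCm38.p6 gave 64 genes, so that 31 family genes were listed in neither table. The 33 listed genes are 51.6% of the family (exact 95% interval 38.7 to 64.2), beside 26.6% of all 21035 genes with curated protein-coding transcripts. Of the 37 ligand genes (Slits, semaphorins, netrins, netrin-G genes and ephrins) 18 were listed, and of the 21 receptor genes 15. In reads the ligands held 28 nonredundant reads in library 1 and 362 in library 2, the last almost all from Efnb2, while the receptors held 93 in library 1 and 44 in library 2.

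**Figure D1:**
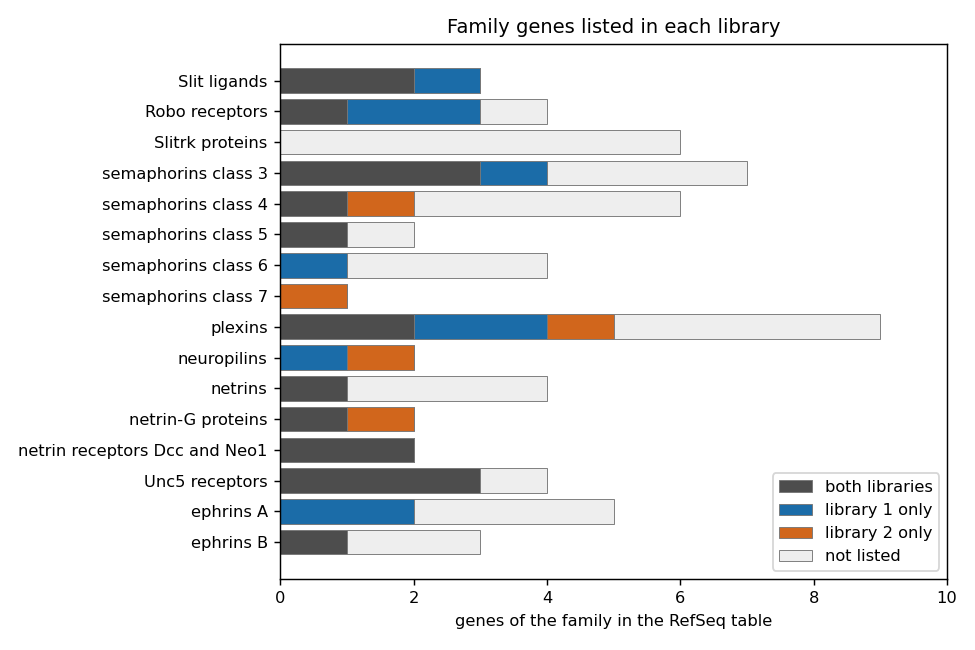
Number of family genes (horizontal axis) by role (vertical axis), split into genes listed in both libraries, in library 1 only, in library 2 only, and in neither. All 3 Slit genes, both neuropilin genes and both of Dcc and Neo1 were listed, and none of the 6 Slitrk genes was.

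All 3 Slit genes were listed, each with few reads. Slits are large secreted repellents that keep axons from crossing or re-crossing the midline. Slit3 had 6 nonredundant and 11 redundant reads in library 1 and 1 and 1 in library 2. Slit1 had 3 of each kind in library 1 only, and Slit2 had 1 of each kind in both libraries. Among their receptors, Robo1 had 3 nonredundant reads in library 1 and 3 in library 2 (4 and 3 redundant reads), Robo2 had 3 nonredundant and 3 redundant reads in library 1 only, and Robo3, the Robo family member of commissural axons, had 2 of each in library 1 only. Robo4, a Robo gene known from endothelium, was listed in neither. The Slit genes summed to 10 nonredundant reads in library 1 and 2 in library 2, and the Robo genes to 8 in library 1 and 3 in library 2. These are counts too small to rank the libraries. For Slit3, the most uneven of them, the ratio of reads as a share of the library, library 1 over library 2, was 5.28 with an exact interval of 0.640 to 243.

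Semaphorins were listed in 9 of 20 genes, and no semaphorin had more than 4 nonredundant reads in either library. The secreted class 3, which signals mostly through neuropilins and A-type plexins, gave 4 of 7 genes. Sema3a, the classic growth cone-collapsing repellent, had 4 nonredundant and 6 redundant reads in library 1 and 1 of each in library 2. Sema3d and Sema3e, the second of which can bind Plxnd1 without a neuropilin, each had 1 nonredundant read in library 1 and 2 in library 2, with redundant counts equal to these, and Sema3c had 2 of each kind in library 1 only. The values of all class 3 genes therefore overlapped at a few reads.

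In the membrane-bound classes, Sema4f had 1 nonredundant read in each library (1 and 2 redundant), and Sema4a had 1 nonredundant and 8 redundant reads in library 2 only. Sema5a, which carries thrombospondin repeats, had 2 nonredundant reads in each library (3 and 5 redundant). Sema6a, a transmembrane ligand of A-type plexins, had 1 nonredundant and 5 redundant reads in library 1 only. Sema7a, anchored by a lipid, had 1 of each kind in library 2 only. Together the semaphorins held 12 nonredundant reads in library 1 and 10 in library 2.

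The semaphorin receptors carried more nonredundant reads than their ligands, in library 1 mostly through Nrp2. Their 4 best supported genes each had more reads in 1 library, but only Nrp2 and Plxna4 differed at least 10-fold. Nrp2, a coreceptor of class 3 semaphorins and of vascular endothelial growth factors, had 44 nonredundant and 98 redundant reads in library 1 and was absent from the table of library 2. It ranked 253rd of 4184 genes in library 1 by nonredundant reads, at 7.94 per 10000 reads of the library (exact 95% interval 5.77 to 10.7). Where a gene is not listed, its count is taken as 0, and a count of 0 allows up to 3 reads per library. Set against that limit, Nrp2 was 12.9-fold higher in library 1. This fold leaves out the counting error of its 44 reads. The exact interval of Nrp2 began at 5.77 per 10000 in library 1 and ended at 0.757 in library 2. The related Nrp1, the principal Sema3a coreceptor, was the other way round, listed in library 2 only with 8 nonredundant and 27 redundant reads. With the same limit it was 3.03-fold lower in library 1. Its interval began at 0.709 per 10000 in library 2 and ended at 0.665 in library 1, so the 2 nearly met.

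Plxnc1, the plexin that binds Sema7a, had 18 nonredundant and 114 redundant reads in library 1 and none in library 2. With library 2 set at the limit of 3 reads it was 5.28-fold higher in library 1, again without the counting error of the 18 reads. Plxna4, a receptor for Sema3a with neuropilin and for class 6 semaphorins, had 1 nonredundant and 1 redundant read in library 1, against 10 and 33 in library 2. The ratio for Plxna4, library 1 over library 2, was 0.0879 with an exact interval of 0.00203 to 0.618. The other listed plexins rested on single reads or a pair: Plxna1 had 1 of each kind in both libraries, Plxnb1 1 of each kind in library 1 only, and Plxna2 2 of each kind in library 2 only. Plxna3, Plxnb2, Plxnb3 and Plxnd1 were listed in neither table.

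All listed netrin receptor genes had reads in both libraries, mostly few. Of the secreted netrins only Ntn1 was listed, with as few nonredundant reads as the receptor gene Neo1. Dcc, the attractive netrin receptor, had 11 nonredundant reads in library 1 and 11 in library 2, and was the only one of the 33 genes with 10 or more in both. How many of all 5614 genes reached that level in both was not counted. Genes outside the group did so too, such as Cdh13 with 224 and 243 and Ephb1 with 370 and 675 in libraries 1 and 2. As a share of the library the Dcc counts are 1.98 (0.990 to 3.55) and 2.26 (1.13 to 4.04) per 10000 reads, with a ratio, library 1 over library 2, of 0.879 (0.346 to 2.24). Its redundant reads were unlike, 23 in library 1 and 1125 in library 2. Neo1, which encodes neogenin, a relative of Dcc that also binds repulsive guidance molecules, had 1 nonredundant read in each library (1 and 6 redundant).

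Of the 4 Unc5 genes, whose products turn netrin attraction into repulsion, 3 were listed, each in both libraries. Unc5b had 2 nonredundant reads in library 1 and 6 in library 2 (2 and 14 redundant). Unc5c had 2 in library 1 and 1 in library 2 (19 and 1 redundant), and Unc5d had 4 in library 1 and 1 in library 2 (4 and 1328 redundant). The Unc5 genes summed to 8 nonredundant reads in each library. Unc5a was listed in neither. Among the ligands, Ntn1, encoding netrin-1, had 1 nonredundant read in each library (1 and 2 redundant), and Ntn3, Ntn4 and Ntn5 were not listed. The netrin-G proteins, lipid-anchored synaptic relatives that do not bind Dcc, were both listed. Ntng2 had 1 nonredundant read in library 1 and 4 in library 2 (2 and 5 redundant), and Ntng1 had 1 of each kind in library 2 only.

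Ephrins gave the gene with most reads in the group. Efnb2, a transmembrane ephrin that binds B-type Eph receptors and itself signals back into the cell that carries it, had 1 nonredundant and 27 redundant reads in library 1 and 344 and 2058 in library 2. It was the 23rd of 3168 genes in library 2 by nonredundant reads and the 44th by redundant reads, while in library 1 it was among the genes with 1 nonredundant read. Per 10000 reads of the library its level was 0.180 in library 1 (0.00457 to 1.005) and 70.6 in library 2 (63.3 to 78.4). The ratio, library 1 over library 2, was 0.00256 with an exact interval of 6.45e-05 to 0.0143. Among genes of its length class it was 2nd of 464 listed in library 2, where the median was 1 read. The lipid-anchored A-type ephrins Efna5, with 2 nonredundant and 4 redundant reads, and Efna2, with 1 and 2, were listed in library 1 only. Efna1, Efna3, Efna4, Efnb1 and Efnb3 were in neither table.

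**Figure D2:**
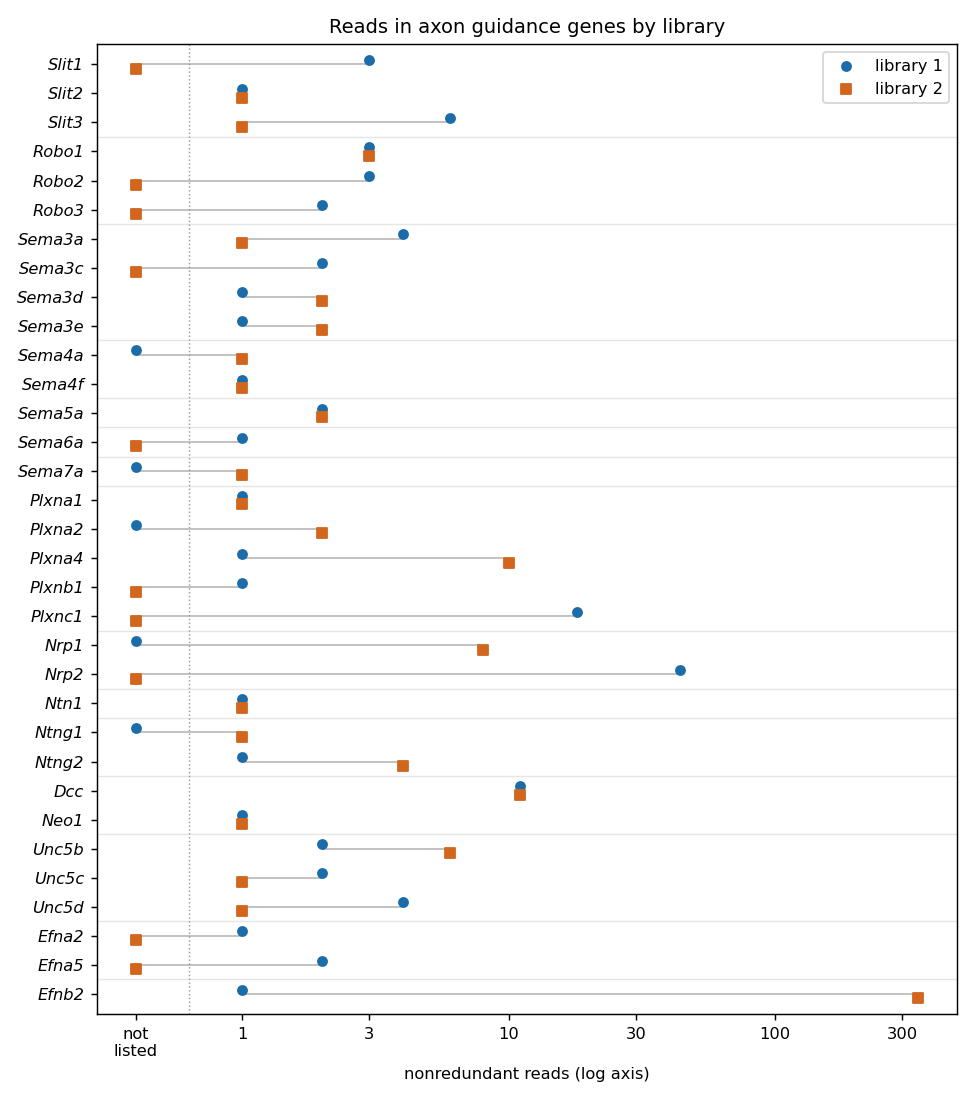
Nonredundant reads (horizontal log axis, with a separate position for genes not listed) of the 33 genes (vertical axis, ordered by role) in library 1 (circles) and library 2 (squares), joined by a line; each point is 1 pooled table without replicates. Most genes lie at 1 to 3 reads, Nrp2 (44 reads) and Plxnc1 (18) stand out in library 1 only, Efnb2 (344) and Plxna4 (10) in library 2, and Dcc has 11 in both.

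Large differences between the libraries were few among these genes. A gene was counted as leaning to a library when its share of nonredundant reads there was at least 10 times that in the other library, with an unlisted gene set at the limit of 3 reads and a listed gene at its own count, even where that is 1. Only Nrp2 leaned to library 1 (1 of 33 genes, 3.03%, beside 5.45% of all 5614), and Efnb2 and Plxna4 leaned to library 2 (2 of 33, 6.06%, beside 3.31% of all). Counted in redundant reads, Nrp2, Plxnc1, Slit3 and Unc5c leaned to library 1 (4 of 33, 12.1%, beside 11.6% of all), and Efnb2, Unc5d, Dcc and Plxna4 leaned to library 2 (4 of 33, 12.1%, beside 4.99% of all; exact 95% interval 3.40 to 28.2). Of the 18 genes in both libraries, 4 took a larger share of the nonredundant reads in library 1 and 14 in library 2. That split carries little weight, since equal small counts such as 1 and 1 give the larger share to library 2 merely because its total is smaller.

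Few of these genes had many redundant reads per nonredundant read, and their share was near that of all listed genes. Each nonredundant read of the group stood for 2.83 redundant reads on average in library 1 and for 11.4 in library 2. Over all listed genes the averages were 15.8 and 26.7. These averages divide summed reads, so genes with many reads weigh most and the typical gene is not described. The median of redundant reads in library 1 was 2.5 for the listed genes of the group and 2 for all listed genes. In library 2 both medians were 2. Nonredundant and redundant counts were equal in 15 of 28 genes in library 1 and in 11 of 23 in library 2. That share was not counted over all listed genes, so it does not set the group apart. Equal counts were common outside it: among all genes with exactly 1 nonredundant read (2246 in library 1, 1891 in library 2) the median was 1 redundant read. In library 1 a single gene had 10 or more redundant reads per nonredundant read, Efnb2 with 27.0 (1 of 28 genes, 3.57%, beside 6.62% of all listed genes). In library 2 there were 2, Dcc with 102.3 and Unc5d with 1328 (2 of 23, 8.70%, beside 6.82% of all listed genes).

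Unc5d in library 2 had 1328 redundant reads on 1 nonredundant read. Among the 1891 genes of that library with exactly 1 nonredundant read it had the 3rd highest redundant count, where the median was 1, the 99th percentile 143.6 and the highest 1742. Dcc, with 1125 redundant reads on 11 nonredundant reads, ranked 72nd by redundant and 269th by nonredundant reads. Efnb2, Unc5d and Dcc together held 97.5% of the group's 4629 redundant reads in library 2. Dcc and Unc5d thus stood higher in library 2 by redundant than by nonredundant reads, and Unc5d had 4 nonredundant reads in library 1 and 1 in library 2. The other listed netrin receptor genes, Neo1, Unc5b and Unc5c, had 6, 2.33 and 1 redundant reads per nonredundant read in library 2. The position of the reads was not analysed here, and the part of PCR copying in these counts was not tested.

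**Figure D3:**
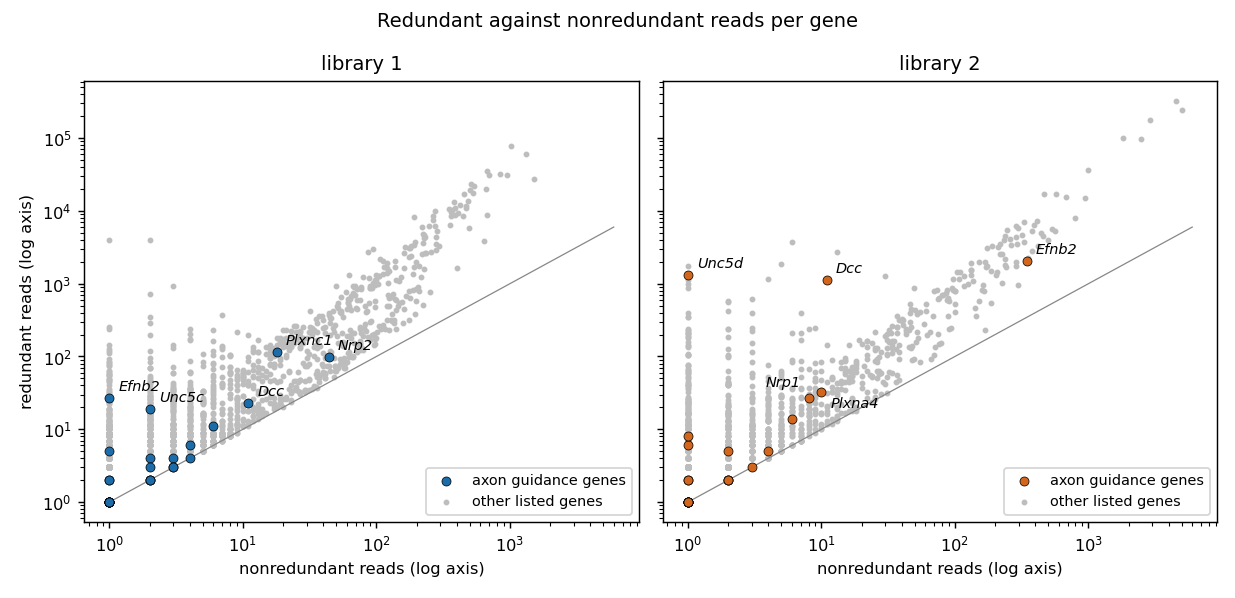
Redundant reads (vertical log axis) against nonredundant reads (horizontal log axis) for each listed gene in library 1 (left) and library 2 (right); coloured points are axon guidance genes, grey points other genes, and the line marks equal counts. Unc5d (1 nonredundant and 1328 redundant reads) and Dcc (11 and 1125) lie far above the line in library 2, while in library 1 they have 4 and 4, and 11 and 23.

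Which family genes were listed went with their length. Lengths for the classes were taken from GRCm38.p6, a different assembly from the authors' mm9, and were used only to put genes into 10 classes of equal size. In the longest class 23 of 25 family genes were listed (92.0%, exact 95% interval 74.0 to 99.02), beside 81.6% of all genes of that class, and the 2 not listed were Sema5b and Sema6d. In classes 8 and 9 it was 4 of 9 family genes (44.4%, 13.7 to 78.8), beside 49.4% of all, and in classes 6 and 7 it was 4 of 6 (66.7%, 22.3 to 95.7), beside 26.0% of all. In the 5 shortest classes 2 of 24 were listed (8.33%, 1.03 to 27.0), beside 6.76% of all, namely Robo3 and Efna2. In each of these groups of classes the interval of the family share held the share of all genes.

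Gene length also differed between the roles. All 11 receptor genes of the longest class were listed and 12 of its 14 ligand genes, while outside it 4 of 10 receptor genes and 6 of 23 ligand genes were. The 6 Slitrk genes, which encode leucine-rich repeat proteins of synapses named for their likeness to Slit and to Trk receptors, fall in classes 2 to 5, and none was listed. The share of listed genes in these classes lay between 2.38% and 15.3%, so an absence of 6 such genes is not informative. The 5 family genes on the X chromosome (Efnb1, Plxna3, Plxnb3, Slitrk2 and Slitrk4) were also not listed, beside 21.5% of all genes on that chromosome that were, and all 5 belong to class 5.

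Read support also went with length. The share of all genes with 10 or more nonredundant reads in at least one library was 0.998% in class 5, 3.47% in class 8, 6.56% in class 9 and 19.3% in class 10, and 4 of the 5 family genes at that level were in class 10. In the longest class 4 of 25 family genes reached 10 or more nonredundant reads in at least one library (16.0%), beside 19.3% of all genes of that class. In that class Nrp2 ranked 139th and Plxnc1 206th of 1506 listed genes in library 1, and Dcc ranked 252nd in library 1 and 137th of 1227 in library 2. Robo2, Robo1, Dcc and Slit3, all of the longest class, had 3, 3, 11 and 6 nonredundant reads in library 1. Efnb2, with the most reads of the group, is the fifth and lies in class 8.

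**Figure D4:**
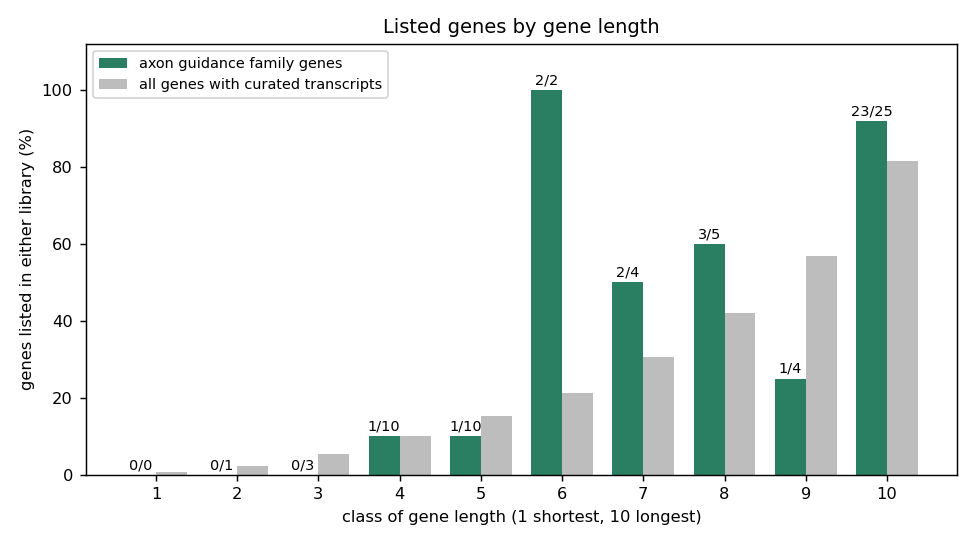
Percent of genes listed in either library (vertical axis) by class of gene length (horizontal axis, 10 classes of equal size, 1 the shortest), for axon guidance family genes (green, listed over total written above) and for all genes with curated transcripts (grey). The green bars rest on few genes except in class 10, where 23 of 25 family genes and 81.6% of all genes were listed.

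Other components of these pathways, a list of 80 coreceptors, further ligands and intracellular effectors, were listed in 47 cases (58.8%, beside 26.6% of all genes with curated transcripts and with no account of gene length), 32 in library 1 (68.1% of the 47, beside 74.5% of all listed genes) and 36 in library 2 (76.6%, beside 56.4%), with 21 in both (44.7%, beside 31.0%). The list was chosen by hand with earlier results of these data known, so its shares are description only and do not show enrichment. At 10 or more nonredundant reads there were 6 of 32 in library 1 (18.8%, beside 11.9% of all listed genes) and 5 of 36 in library 2 (13.9%, beside 9.28%). None reached that level in both, for which the share of all genes was not counted. The ubiquitin ligase gene Siah2, of the family of ligases that acts on Dcc, had 1 nonredundant read in library 1 and 468 in library 2. Enah, an actin regulator of the Ena/VASP family that acts in netrin and Slit responses, had 152 in library 1 and 2 in library 2. Dscaml1, an adhesion gene related to Dscam, had 141 in library 1 and 2 in library 2, and Dscam itself, reported as a netrin receptor, had 51 in library 1 and 4 in library 2.

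Lrig2, which restrains the shedding of neogenin, had 117 nonredundant reads, all in library 2. Myo10, a filopodial myosin that can carry Dcc, had 3 in library 1 and 41 in library 2. The adhesion gene Nrcam, a partner in semaphorin receptor complexes, had 2 in library 1 and 37 in library 2, and Dpysl5, of the collapsin response mediator family, had 37 in library 2 only. The next gene by summed reads, Abl1, a tyrosine kinase that acts on the actin cytoskeleton, had 22 in library 1 and 6 in library 2. By the 10-fold rule above, 4 of the 47 listed genes leaned to library 1 (8.51%, beside 5.45% of all listed genes) and 5 to library 2 (10.6%, beside 3.31%). These shares, too, only describe a list chosen by hand.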

How the data were processed

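Per the labels' protocols, genomic DNA of trapped cells was amplified by splinkerette PCR and sequenced on a HiSeq instrument. CASAVA, BWA and the build mm9 are named in the submitters' processing notes, with no versions. Per the file headers, the deposited values are counts of nonredundant and redundant reads per gene, without normalization, 1 table for each library of 2 pooled samples. For filters and the assignment of reads to genes, no source used here gives details. Totals were 55442 and 48750 nonredundant reads.

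Members were found by symbol, and all 33 matched the RefSeq gene table of GRCm38.p6 through their transcripts; 4182 and 3167 listed genes matched overall. None of the overlapping RefSeq genes of members was itself listed. Levels are reads per 10000 nonredundant reads; ratios have exact conditional intervals. The named genes are all members, the 8 pathway genes with most summed reads, and unlisted family genes. Members and lists were chosen with earlier results of these data known. The ratio calls were tested on simulated data. Python 3.11.15, pandas 2.3.3 and SciPy 1.17.1 were used. Alternatives were other read minima, redundant reads, other totals, a 5-fold limit, current symbols and protein coding genes.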

Additional observations from a re-analysis of the deposited data

How the results depend on the processing

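Most counts of genes depended on the read minimum. The 28 genes with reads in library 1 became 15 at 2 or more and 3 at 10 or more nonredundant reads, and 6 at 10 or more redundant reads. The 23 in library 2 became 11, 3 and 6. The share of reads in the group changed to 0.0391% in library 1 and 0.356% in library 2 with redundant reads, and to 0.139% and 0.128% without Nrp2 and Efnb2. With the 10 leading genes left out of the total it was 1.44% in library 2. Genes leaning to library 1 numbered 4 with redundant reads and 3 at 5-fold, against 1, and those leaning to library 2 numbered 4 with redundant reads, against 2. A minimum of 2 nonredundant reads, chosen after seeing the data, left 0 genes in library 1 and 1 in library 2 with 10 or more redundant reads per nonredundant read. In all, 7 of 23 alternatives were within the limits set, which were wide and do not mean an unchanged value. Among the 7 is a minimum of 2 redundant reads, at which 28 genes became 19 in library 1 and 23 became 16 in library 2. No paired analysis was possible because each table pools its 2 samples. For the same reason leaving out a sample was not run. A count of 0 allows 0.541 reads per 10000 in library 1 and 0.615 in library 2, so differences among genes with 1 to 3 reads were not detectable at this depth.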
